A study of Homo sapiens with 9 samples.

Results

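The genes described here are the chemokines of the CC and CXC families, their receptors, the interleukins and the interleukin receptors whose symbol is the interleukin's name followed by 1 letter, chosen by their symbols alone (CCL, CXCL, CCR or CXCR and a number, or IL, a number and at most 1 letter). In all, 99 of the 25680 gene symbols in the deposited tables fitted this rule, and 28 of the 99 were expressed, meaning that they passed a filter that asks for about 10 counts in at least 3 samples. Messenger RNA had been sequenced from SKNO-1, a line of human acute myeloid leukaemia with the AML1-ETO fusion of RUNX1 and RUNX1T1, grown with the cytokine GM-CSF. The 9 samples formed 3 groups of 3: EV, the control, and SH2 and SH3, cells with either of 2 shRNAs against ASXL2, a Polycomb-associated chromatin protein. The labels do not explain the abbreviation EV, and the study describes its control as an shRNA. Within each group the samples carry the numbers 1, 13 and 25, and the labels do not say what these mark. All groups come from a single established line in culture, without the stromal and immune cells that surround blasts in the marrow.

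Chemokines are small secreted proteins that direct the movement of leukocytes, and each binds one or more receptors with 7 membrane-spanning helices. The CXC chemokines that lie side by side on chromosome 4, among them CXCL8 and CXCL1 to CXCL3, attract neutrophils through CXCR1 and CXCR2. CXCR4 is the receptor of CXCL12 and holds haematopoietic stem cells and leukaemic blasts in the marrow. Interleukins act through receptor chains that mostly signal by JAK kinases and STAT factors, while IL1 and IL18 signal through MYD88, IRAK kinases and NF-kB.

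CXCL8 was the only member that passed the threshold in the edgeR fit of all 9 samples with the sample number in the model, for both shRNAs against EV, so its promoter is shown with those of its neighbours CXCL1, CXCL2 and CXCL3, which share its receptor CXCR2. Each sequence is the 250 bases before the gene's start in RefSeq (GRCh38.p14), in the direction of transcription. Capitals mark matches to the AP-1 motif TGACTCA, to the NF-kB motif GGAATTTCC, and to the TATA box letters TATAAAA, the first 2 searched on both strands and the last on the given strand. The CXCL8 promoter lies at chr4:73740319-73740568 (+), that of CXCL1 at chr4:73869143-73869392 (+), that of CXCL2 at chr4:74099196-74099445 (-) and that of CXCL3 at chr4:74038690-74038939 (-).
CXCL8: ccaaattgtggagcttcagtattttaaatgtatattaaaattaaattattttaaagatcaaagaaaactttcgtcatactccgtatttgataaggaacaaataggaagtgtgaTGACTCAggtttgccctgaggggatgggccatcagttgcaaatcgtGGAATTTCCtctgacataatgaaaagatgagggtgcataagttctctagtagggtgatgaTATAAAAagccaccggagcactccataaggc
CXCL1: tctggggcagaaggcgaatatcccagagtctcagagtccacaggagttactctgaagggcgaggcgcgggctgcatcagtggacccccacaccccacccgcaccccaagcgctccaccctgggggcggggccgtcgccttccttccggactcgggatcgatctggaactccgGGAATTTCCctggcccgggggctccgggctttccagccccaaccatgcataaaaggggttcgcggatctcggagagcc
CXCL2: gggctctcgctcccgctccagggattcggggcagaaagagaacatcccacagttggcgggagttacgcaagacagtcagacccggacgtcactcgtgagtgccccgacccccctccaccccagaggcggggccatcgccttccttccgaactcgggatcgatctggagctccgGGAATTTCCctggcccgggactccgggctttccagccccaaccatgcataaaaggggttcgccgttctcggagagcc
CXCL3: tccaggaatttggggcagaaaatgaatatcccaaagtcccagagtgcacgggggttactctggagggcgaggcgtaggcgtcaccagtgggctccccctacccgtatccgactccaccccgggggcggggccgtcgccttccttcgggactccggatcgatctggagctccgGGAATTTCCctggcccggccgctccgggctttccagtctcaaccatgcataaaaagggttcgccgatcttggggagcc
Counted from the gene start, the AP-1 match in the CXCL8 promoter begins at position -137, the NF-kB match at -91 and the TATA match at -31. The NF-kB letters begin at -78, -77 and -78 in CXCL1, CXCL2 and CXCL3, and neither of the other 2 motifs occurs in those 3 windows. Of the 35116 RefSeq promoters of this length, 4.20% hold the AP-1 letters, 0.413% the NF-kB letters and 2.56% the TATA letters. A match is a run of letters and no evidence that a factor binds there.

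Depth was similar across the samples, at 27714431 to 35406063 counts with 1 RefSeq transcript per symbol, so a gene with no count in a sample could still have been present at 0.0847 to 0.108 CPM (counts scaled to the library size), the level of 3 counts. Such limits cover counting error only. The targeted gene followed the labels: ASXL2 was at 67.9, 67.9 and 74.7 CPM in EV, 30.4, 36.2 and 36.2 CPM in SH2 and 26.9, 29.1 and 41.1 CPM in SH3, with every knockdown sample below every EV sample (exact permutation test, two-sided, p = 0.0119, the smallest that 84 splits allow). With samples exchanged only within the same number, the exact permutation test gave p = 0.0370, the smallest that 27 splits allow. The line's markers were present, with MPO between 6368 and 10243 CPM, while the stem cell marker CD34 did not exceed 0.309 CPM. On the first principal component, which held 52.9% of the variance of log2 CPM, the 3 samples numbered 1 scored -58.6 (SH3), -24.9 (EV) and -21.2 (SH2), against 4.84 to 25.0 for the other samples. SH3 replicate 1 therefore stands apart, and each result that rests on it is given with and without it.

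Most of these genes were silent or nearly so in SKNO-1 cells. Besides the 28 expressed genes, 40 had counts below the filter and 31 had no count in any sample. The expressed share was 28.3%, while 55.3% of all symbols passed the same filter. By role, 4 of 24 CC chemokines, 5 of 14 CXC chemokines, 4 of 10 CC receptors, 4 of 6 CXC receptors, 7 of 39 interleukins and 4 of 6 interleukin receptors were expressed. Receptors thus passed the filter in larger shares than their ligands in each of the 3 families. No chemokine receptor was without a count, whereas 19 interleukins were.

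**Figure D1:**
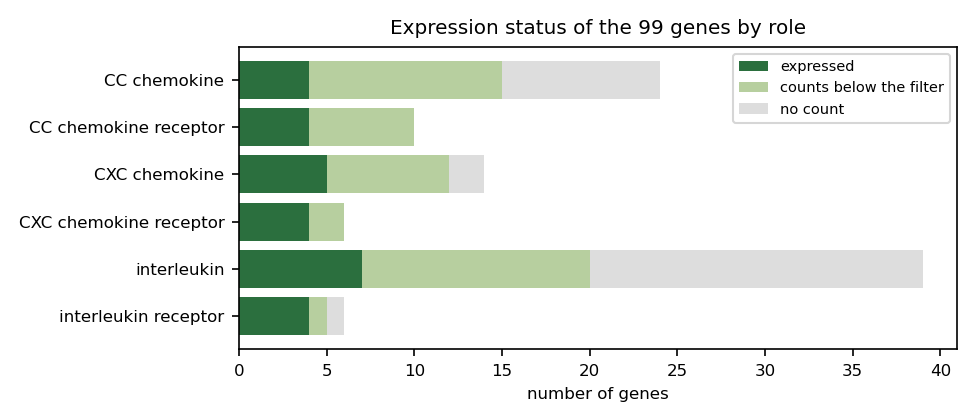
Number of genes (horizontal axis) by role, split into those that passed the expression filter, those with counts below it and those with no count in the 9 samples. Interleukins are the largest class, with 39 genes of which 7 passed, and 4 of the 6 CXC receptors passed.

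Among the genes with no count in any sample were CXCL12, the ligand of CXCR4, and CXCL9, an interferon-induced ligand of CXCR3. The interleukins without a count included the T cell growth factor IL2, the haematopoietic factors IL3, IL5, IL6, IL7 and IL9, the type 2 cytokine IL13 and the type 17 cytokines IL17A and IL17F. The only receptor without a count was IL9R. CCL3 had no count either, but it has near-identical copies, so the assignment of its reads is uncertain. The 40 genes below the filter reached at most 14 counts in a sample (CXCR3, 0.439 CPM), and 33 of them never exceeded 5 counts. This set held CXCL1, with 48 counts over the 9 samples, CXCR1, with 26, IL23R, with 42, and IL32, with 33, as well as IL1A, IL4, IL10 and IL33.

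Of the 28 expressed genes, 6 had a mean of at least 10 CPM over the 9 samples and 13 a mean of at least 1 CPM. The other 15 lay near the filter, with as few as 2 counts in a sample for CCR4 and CCR7, and their ratios are accordingly uncertain. Per kilobase of transcript in EV, IL4R was highest at 16.7 ± 1.93 CPM per kb (SD, n = 3), followed by CXCR4 at 14.6 ± 4.95, IL1B at 11.3 ± 1.84 and CXCL8 at 9.14 ± 2.88 CPM per kb. Neighbours among these 4 differed by less than the larger of their SDs. IL16 at 4.66 ± 1.05 and IL6R at 3.08 ± 1.38 CPM per kb came next, and every other member was below 3 CPM per kb. IL15 was represented by a non-coding RefSeq variant (NR_037840), so its value need not reflect the mRNA that encodes the protein. CXCL2 and CXCL3 resemble each other and CXCL1 closely, as CXCR2 resembles CXCR1, so the division of reads within these pairs is uncertain.

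**Figure D2:**
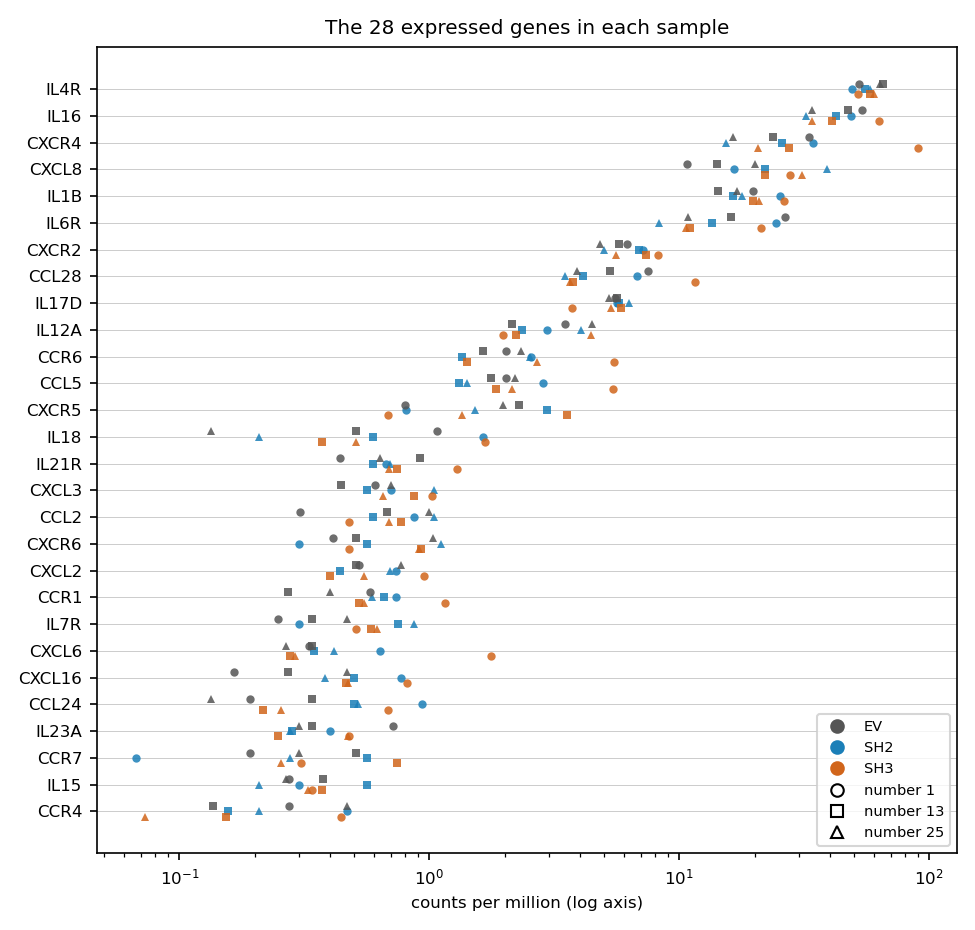
CPM of the 28 expressed genes (log axis) in each of the 9 samples, coloured by group and with a symbol for each number, ordered by mean. The 6 uppermost genes have means of at least 10 CPM, and SH3 replicate 1 (orange circle) is the highest sample for 13 of the 28.

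No chemokine, receptor or interleukin was called between the groups in the fit without the sample number. With edgeR's quasi-likelihood test and Benjamini-Hochberg adjustment over all 14199 genes tested, 0 of the 28 members were past an adjusted p of 0.05 for SH2 against EV, for SH3 against EV, for both shRNAs against EV and for SH3 against SH2. The background was the same, since 0 of all genes, or 0%, were called in each of these 4 comparisons. This fit did not call ASXL2, the targeted gene, either (both shRNAs against EV, log2 -1.08, edgeR adjusted p = 0.177). At an unadjusted p under 0.05, edgeR gave 2 members for SH2 (762 of all genes), 1 for SH3 (723), 3 for both shRNAs (942) and 0 for SH3 against SH2 (293). DESeq2 without the number called 0 members in each of the 4 as well, with 22, 26, 56 and 11 of all genes in the same order.

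Same-numbered samples of different groups deviated together, so the groups were also compared within numbers, by adding the number to the model as a block. In this fit CXCL8 was the only member called, for both shRNAs averaged against EV, where 1.10% of all genes were called. None was called for SH2 against EV (0.282% of all genes), for SH3 against EV (0.416%) or for SH3 against SH2 (0.106%), while 6, 7 and 2 members had an unadjusted p under 0.05, beside 2656, 2652 and 1693 of the 14199 genes tested. The 1 call is 3.57% of the members. In bulk RNA of this kind, a changed level in each cell and a changed share of cells that express a gene cannot be told apart.

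CXCL8 (interleukin-8; chr4:74606236-74609433 in GRCh37, + strand) encodes a chemokine that attracts neutrophils. Here and below, values per sample are given in the order 1, 13 and 25. CXCL8 was at 10.8, 14.1 and 20.1 CPM in EV, 16.6, 22.0 and 39.1 CPM in SH2 and 27.9, 22.0 and 30.8 CPM in SH3. Each knockdown sample was above the EV sample of its number, by 1.53-fold to 2.57-fold, but the groups overlapped, since SH2 replicate 1 was below EV replicate 25.

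For both shRNAs against EV the log2 fold change of CXCL8 was 0.82 ± 0.15 (SE; 1.77-fold) with the block, with an adjusted p of 0.0423 in edgeR, and 0.82 ± 0.29 without it, with an adjusted p of 0.688. Each shRNA alone gave 0.76 ± 0.17 for SH2 (edgeR adjusted p = 0.0852) and 0.89 ± 0.17 for SH3 (edgeR adjusted p = 0.0504) with the block. The 2 shRNAs did not differ beyond their error (SH3 minus SH2, log2 0.13 ± 0.17, edgeR adjusted p = 0.761). The call is a narrow one. It was lost when transcript length was added to the blocked fit (log2 0.76, edgeR adjusted p = 0.0651) and when any EV or SH2 sample was left out of it (log2 0.72 to 0.91, adjusted p = 0.0737 to 0.265), and it held without SH3 replicate 1 (log2 0.67 ± 0.08, adjusted p = 0.000691), without SH3 replicate 13 and without SH3 replicate 25.

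IL1B, interleukin-1 beta, an inflammatory cytokine that myeloid cells make as a precursor, showed the same direction at smaller size. It was at 19.8, 14.3 and 17.1 CPM in EV, 25.2, 16.3 and 17.8 CPM in SH2 and 26.2, 19.7 and 20.8 CPM in SH3. All 6 knockdown samples were above the EV sample of their number, by 1.04-fold to 1.38-fold, and the groups overlapped. With the block, both shRNAs against EV gave log2 0.29 ± 0.08 (edgeR adjusted p = 0.0828) and SH3 alone 0.38 ± 0.09 (edgeR adjusted p = 0.0793). Neither passed the threshold in this fit. SH3 against EV did so in DESeq2 with the block (adjusted p = 0.0343). Both comparisons did so in the blocked edgeR fit without SH3 replicate 1 (adjusted p = 0.0344 for SH3 and 0.0202 for both shRNAs).

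CXCR2, the receptor of CXCL8, was at 6.16, 5.75 and 4.80 CPM in EV, 7.13, 6.93 and 4.99 CPM in SH2 and 8.21, 7.38 and 5.57 CPM in SH3. Its pairs were 1.04-fold to 1.33-fold higher in the knockdown, and its log2 fold change with the block was 0.26 ± 0.10, with an edgeR adjusted p of 0.189. CCR1, a receptor of CCL3 and CCL5, and IL7R, the receptor chain of IL7, were also higher in 6 of 6 pairs, at under 1.2 CPM in each sample (CCR1 log2 0.75 ± 0.27, IL7R 0.78 ± 0.29 with the block). Their edgeR adjusted p values were 0.165 and 0.175. IL4R and IL6R were lower in 6 of 6 pairs, with log2 -0.12 ± 0.06 and -0.27 ± 0.10 and edgeR adjusted p values of 0.239 and 0.191.

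Thus 5 members (17.9%) were higher in 6 of 6 pairs and 2 (7.14%) were lower in 6 of 6, beside 11.6% and 11.6% of all genes tested. In no member did the 6 knockdown samples lie wholly on one side of the 3 EV samples, which 4.77% of all genes did. The median log2 fold change of the 28 members for both shRNAs against EV was 0.22, against 0.01 over all genes tested, with 20 members above 0 and 8 below. It was 0.09 for SH2 and 0.36 for SH3, against 0.01 over all genes in each. Without SH3 replicate 1 the members' median was 0.06 for SH3 and 0.13 for both shRNAs, against -0.01 over all genes in each. The paired comparisons share the EV samples, so the values for SH2 and SH3 are not independent of each other.

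**Figure D3:**
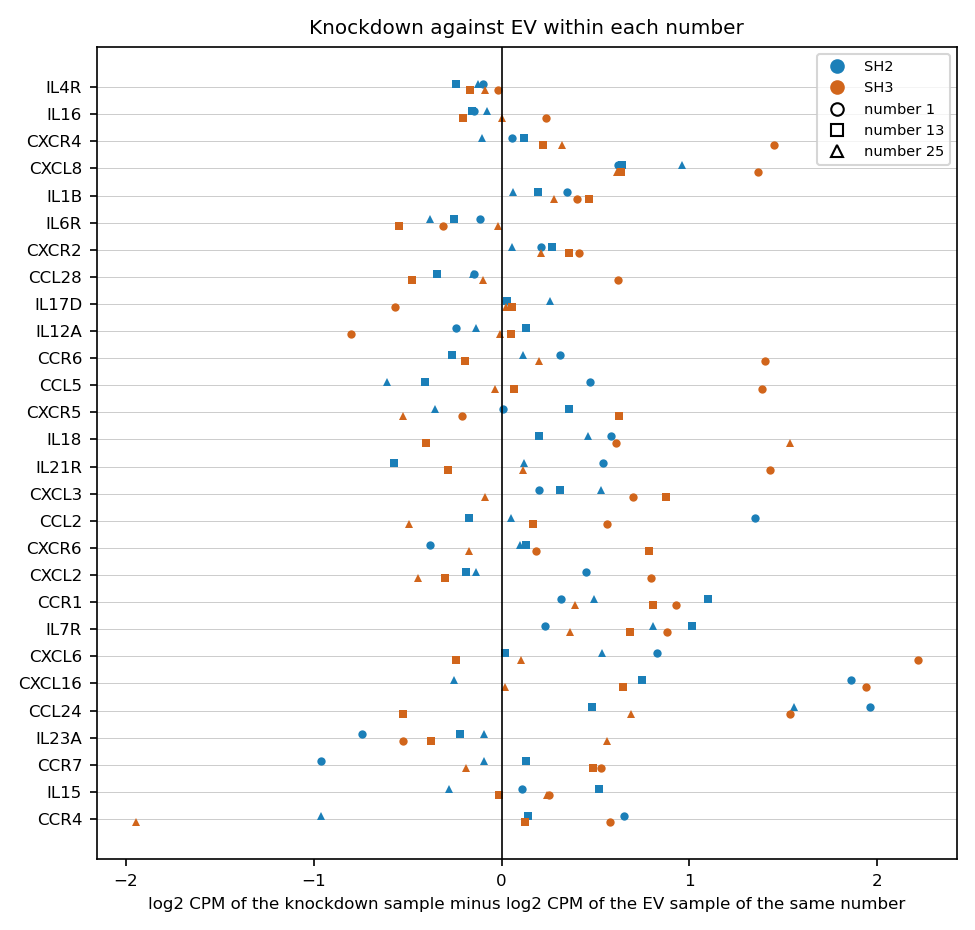
Difference in log2 CPM between each knockdown sample and the EV sample of the same number, for the 28 expressed genes ordered by mean level, with SH2 in blue and SH3 in orange and a symbol for each number. All 6 points of CXCL8 lie between 0.62 and 1.36 to the right of 0, and the widest spreads belong to genes of low level.

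DESeq2 with the block called CXCL8 for SH2 against EV (2.60% of all genes), CXCL8 and IL1B for SH3 (3.34%) and CXCL8 for both shRNAs (4.43%). Without SH3 replicate 1, the blocked edgeR fit called CXCL8 and CCL24 for SH2 (11.2% of all genes), and CXCL8 and IL1B for SH3 (2.58%) and for both shRNAs (12.3%). CCL24, an attractant of eosinophils, was at 0.193, 0.340 and 0.133 CPM in EV, 0.938, 0.501 and 0.520 CPM in SH2, and at 0.681, 0.216 and 0.255 CPM in SH3, from 4 to 28 counts a sample. SH3 replicate 13 was thus below EV replicate 13. These values lie close to the limit set by depth. CCL24 had 28, 16 and 15 counts in SH2, 7, 10 and 4 in EV and 7 in each of SH3 replicates 13 and 25. Without SH3 replicate 1 it thus passed the filter only with the SH2 samples, where it was high. Its call for SH2 is therefore not independent of the filter.

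The number carried by a sample separated the members more than the shRNA did. Samples numbered 1 were compared with the mean of those numbered 13 and 25 with the group in the model, and 16 of the 28 members were past an adjusted p of 0.05 in edgeR (57.1%), beside 46.3% of all genes. Of these 16, 11 were higher in the samples numbered 1 (39.3%, with 24.1% of all genes) and 5 were lower (17.9%, with 22.2% of all genes). The 5 lower members include CCR7, which passed the expression filter only through the samples numbered 13. In 5 members the 3 samples numbered 1 lay above all 6 others (14.4% of all genes), and in 3 members below all 6 (12.1%). Differences by number were thus present in a large share of all genes.

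**Figure D4:**
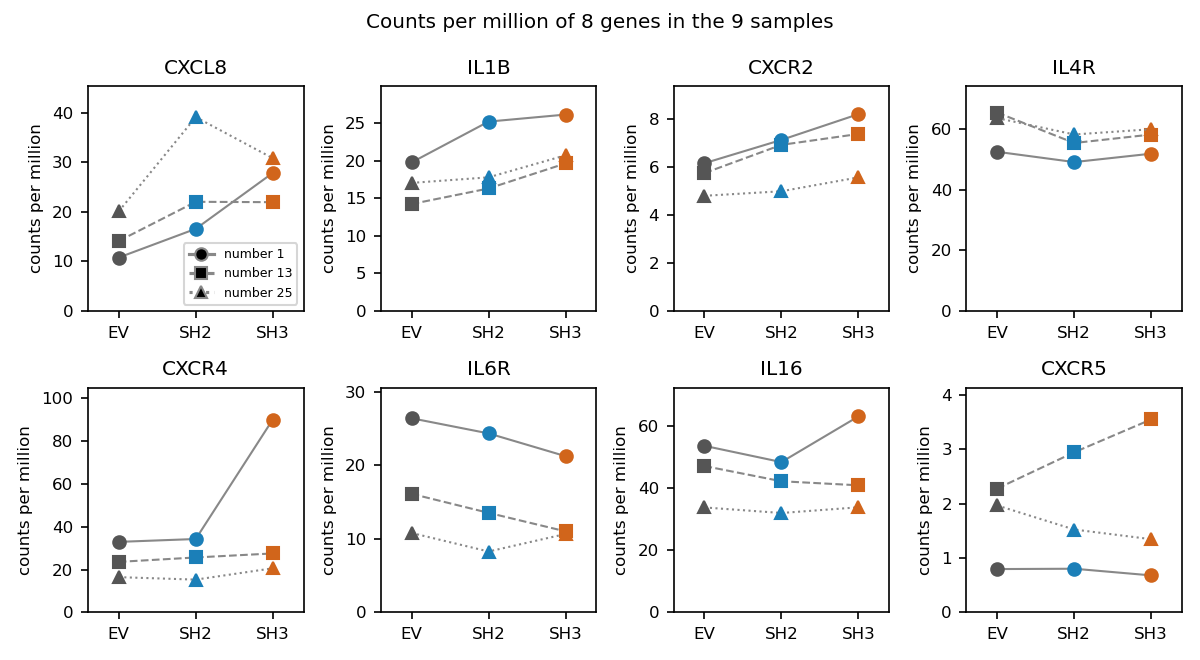
CPM of 8 genes (vertical axes, from 0) in EV, SH2 and SH3, with a line and symbol for each number. CXCL8, IL1B and CXCR2 lie higher in each knockdown sample than in EV of the same number and IL4R and IL6R lower, while CXCR4, IL6R and IL16 are highest and CXCR5 lowest in the samples numbered 1.

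Among the chemokine receptors, CXCR4 was at 32.9, 23.6 and 16.5 CPM in EV, 34.3, 25.7 and 15.3 CPM in SH2 and 90.1, 27.5 and 20.6 CPM in SH3. The samples numbered 1 were above all others, and SH3 replicate 1 was far above the next highest sample. The log2 difference was 1.19 ± 0.18 (edgeR adjusted p = 0.000958), and 0.76 ± 0.08 without SH3 replicate 1 (adjusted p = 1.7e-05). SH3 was not past the threshold against SH2 for CXCR4, with log2 0.69 ± 0.22 with the block and an edgeR adjusted p of 0.266. Among the blocked fits without 1 sample it passed only when SH3 replicate 13 was left out (log2 0.96, edgeR adjusted p = 0.0459), which leaves SH3 replicate 1 as 1 of 2 SH3 samples. Without SH3 replicate 1 the difference was log2 0.24 (edgeR adjusted p = 0.337).

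The lymphocyte receptors CXCR5 and CXCR6, which bind CXCL13 and CXCL16, went the other way. CXCR5 was at 0.798, 2.28 and 1.97 CPM in EV, 0.804, 2.95 and 1.52 CPM in SH2 and 0.681, 3.55 and 1.35 CPM in SH3. Its 3 samples numbered 1 were below all others, with log2 -1.51 ± 0.23 and an edgeR adjusted p of 0.000998. CXCR6 was at 0.413, 0.510 and 1.03 CPM in EV, 0.301, 0.564 and 1.11 CPM in SH2 and 0.477, 0.926 and 0.910 CPM in SH3, again lowest in the samples numbered 1 (log2 -1.05 ± 0.28, edgeR adjusted p = 0.0116). CCR7, the lymph node homing receptor, was at 0.193, 0.510 and 0.300 CPM in EV, 0.0670, 0.564 and 0.277 CPM in SH2 and 0.306, 0.741 and 0.255 CPM in SH3, and its numbers overlapped (log2 -1.12 ± 0.38, edgeR adjusted p = 0.0337). It had 15, 18 and 24 counts in the samples numbered 13 and 2 to 9 counts in the others. CCR7 thus passed the filter only through the samples numbered 13, where it was high. Its call by number is therefore not independent of the filter.

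CCR6, the receptor of CCL20, was at 2.04, 1.63 and 2.33 CPM in EV, 2.54, 1.35 and 2.53 CPM in SH2 and 5.48, 1.42 and 2.69 CPM in SH3. CCR1 was at 0.578, 0.272 and 0.400 CPM in EV, 0.737, 0.658 and 0.589 CPM in SH2 and 1.16, 0.525 and 0.546 CPM in SH3. In both genes SH3 replicate 1 was the highest sample, at 5.48 CPM against at most 2.69 CPM elsewhere for CCR6 and 1.16 against at most 0.737 CPM for CCR1. Their log2 differences of 0.72 ± 0.23 and 0.72 ± 0.25 (edgeR adjusted p = 0.0266 and 0.0373) fell to 0.26 and 0.47 without that sample and were no longer called (adjusted p = 0.291 and 0.262). CXCR2 was higher by 0.29 ± 0.10 (edgeR adjusted p = 0.0336), and this call was lost when any single sample was left out (adjusted p = 0.0565 to 0.104).

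Among the ligands, CCL28, an epithelial chemokine that binds CCR10, was at 7.48, 5.27 and 3.90 CPM in EV, 6.76, 4.14 and 3.50 CPM in SH2 and 11.5, 3.77 and 3.64 CPM in SH3. The samples numbered 1 lay above all others in CCL28 (log2 1.08 ± 0.16, edgeR adjusted p = 0.000939). Leaving out single samples gave log2 0.77 to 1.26 for CCL28. CCL5, a ligand of CCR1, was at 2.04, 1.77 and 2.20 CPM in EV, 2.85, 1.32 and 1.42 CPM in SH2 and 5.41, 1.85 and 2.15 CPM in SH3. CXCL6, a neutrophil attractant like CXCL8, was at 0.330, 0.340 and 0.267 CPM in EV, 0.636, 0.345 and 0.416 CPM in SH2 and 1.77, 0.278 and 0.291 CPM in SH3. Neither was called without SH3 replicate 1, since CCL5 went from log2 0.89 ± 0.22 (edgeR adjusted p = 0.00909) to 0.54 without it (adjusted p = 0.0726), and CXCL6 from 1.36 ± 0.40 (edgeR adjusted p = 0.0181) to 0.47 (adjusted p = 0.320). CXCL8 was lower in the samples numbered 1 by log2 -0.43 ± 0.15 (edgeR adjusted p = 0.0356), or by -0.74 ± 0.10 without SH3 replicate 1 (adjusted p = 0.000103).

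Among the interleukins, IL16, which is made as a precursor by leukocytes and attracts CD4-bearing cells, was at 53.7, 47.1 and 33.8 CPM in EV, 48.4, 42.2 and 32.0 CPM in SH2 and 63.1, 40.9 and 33.9 CPM in SH3. Within each group it was highest in number 1 and lowest in number 25 (number 1 against the others, log2 0.53 ± 0.08, edgeR adjusted p = 0.000738). IL18, a member of the interleukin-1 family, was at 1.07, 0.510 and 0.133 CPM in EV, 1.64, 0.595 and 0.208 CPM in SH2 and 1.67, 0.371 and 0.510 CPM in SH3. It had the largest difference of the 28 members, log2 1.96 ± 0.29 (3.89-fold, edgeR adjusted p = 0.000852), from 4 to 49 counts a sample. IL1B was higher by 0.43 ± 0.07 (edgeR adjusted p = 0.00156), although EV replicate 1 did not exceed every sample of the other numbers.

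The interleukin receptors IL6R and IL4R moved in opposite directions. IL6R, which binds IL6 and signals through IL6ST, was at 26.4, 16.1 and 10.8 CPM in EV, 24.3, 13.5 and 8.28 CPM in SH2 and 21.2, 11.0 and 10.7 CPM in SH3, above all others in the samples numbered 1 (log2 1.05 ± 0.10, edgeR adjusted p = 0.000159). IL4R, the chain that IL4 and IL13 receptors share, was at 52.5, 65.4 and 63.6 CPM in EV, 49.1, 55.4 and 58.2 CPM in SH2 and 51.9, 58.2 and 59.9 CPM in SH3, below all others in the samples numbered 1 (log2 -0.23 ± 0.06, edgeR adjusted p = 0.00734).

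**Figure D5:**
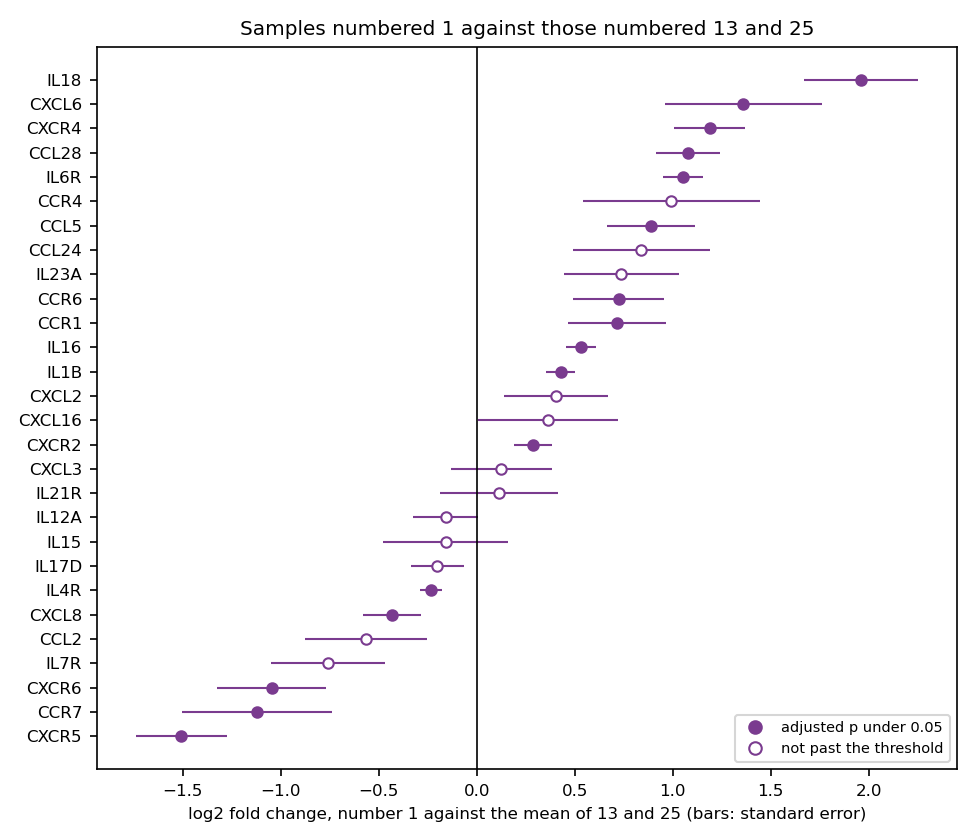
Log2 fold change of the 28 expressed genes between the samples numbered 1 and the mean of those numbered 13 and 25, with bars of 1 standard error, where filled points are past an adjusted p of 0.05 in edgeR. Filled points run from CXCR5 at -1.51 to IL18 at 1.96, with 11 to the right of 0 and 5 to the left.

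Leaving out each of the 9 samples in turn kept the call in every fit for 7 of the 16 members, namely CCL28, CXCR4, CXCR5, IL16, IL18, IL1B and IL6R. The other 9 lost it in at least 1 of these fits. CCL5 lost it without SH3 replicate 1 alone, CXCR6 without SH2 replicate 1 (edgeR adjusted p = 0.0545) and IL4R without EV replicate 1 (edgeR adjusted p = 0.0505). CXCL6 lost it in 3 fits, all without an SH3 sample, CCR6 in 5, CCR7 and CXCL8 in 6, CCR1 in 7 and CXCR2 in all 9. Without SH3 replicate 1 the count was 12 of 28 (42.9%, beside 33.7% of all genes), with IL7R added (log2 -1.10 ± 0.36, edgeR adjusted p = 0.0304) and CCL5, CCR1, CCR6, CXCL6 and CXCR2 lost. IL7R had 9 counts in EV replicate 1 and in SH2 replicate 1, and 10 to 25 counts in the samples numbered 13 and 25. In this fit it passed the filter only through the samples numbered 13 and 25, where it was high. Its call by number is therefore not independent of the filter. SH3 replicate 1 was the highest of the 9 samples for 13 members (46.4%), beside 28.5% of all genes.

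Markers of monocytes, T cells and endothelium were mixed within each list, and some sums over the lists moved with the number. CD14, CD3E, CD3G and CDH5 were at or near 0. Other markers of the same lists were present, among them FCGR1A at 3.03 to 10.6 CPM and CSF1R at 1.10 to 3.98 CPM for monocytes. The summed level of 6 monocyte markers was 7.81 to 16.6 CPM in the samples numbered 1, highest in SH3 replicate 1, and 5.52 to 7.46 CPM in the others, with 4 of the 6 past the filter. CD14, a defining monocyte marker, did not exceed 0.100 CPM. The sum of 6 T cell markers was 548 to 654 CPM in the samples numbered 1 and 379 to 508 CPM in the others, and nearly all of it was CD4 (376.6 to 652 CPM), which myeloid cells also express, while CD3E and CD3G had no count. The sum of 4 endothelial markers was 7.0 to 9.60 CPM in the samples numbered 1 and 4.09 to 7.21 CPM in the others, with CDH5 at 0. The other 3 passed the filter, with KDR at 1.98 to 4.76, PECAM1 at 1.75 to 3.92 and VWF at 0.291 to 3.64 CPM. By group, the monocyte sums were 6.17 to 7.81 CPM in EV, 5.52 to 8.50 CPM in SH2 and 5.77 to 16.6 CPM in SH3. Sums of 6 stromal and 5 epithelial markers did not exceed 2.13 and 0.136 CPM. The part of these markers in the differences was not tested.

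The samples numbered 25 and 13 differed in few members. IL12A, the p35 chain of IL-12, was at 3.49, 2.14 and 4.47 CPM in EV, 2.95, 2.35 and 4.06 CPM in SH2 and 1.97, 2.22 and 4.44 CPM in SH3. In number 25 it was above number 13 by log2 0.94 ± 0.19 (1.92-fold, edgeR adjusted p = 0.0208), and IL16 was lower by -0.39 ± 0.09 (edgeR adjusted p = 0.0346). These 2 calls are 7.14% of the members, beside 5.87% of all genes (2.77% higher and 3.10% lower). Both were lost when any 1 of EV replicate 13, EV replicate 25, SH2 replicate 13, SH2 replicate 25 or SH3 replicate 25 was left out (IL12A edgeR adjusted p = 0.0936 to 0.134). Without SH3 replicate 1, 9 members were called (32.1%), and the share of all genes rose as well, to 19.2%.

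IL17D, a distant member of the IL-17 family and 1 of the 10 most abundant members, was at 5.53, 5.61 and 5.24 CPM in EV, 5.63, 5.74 and 6.27 CPM in SH2 and 3.71, 5.84 and 5.32 CPM in SH3. SH3 replicate 1 was the lowest, the other 8 samples lay between 5.24 and 6.27 CPM, and no comparison of IL17D passed the threshold with all samples. The remaining expressed members, CCL2, CCL24, CCR4, CXCL16, CXCL2, CXCL3, IL15, IL21R, IL23A and IL7R, were not called by group or by number with all 9 samples. Their levels ranged from 0.0728 CPM (CCR4 in SH3 replicate 25) to 1.29 CPM (IL21R in SH3 replicate 1).

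Genes that act with these members were given for comparison from 3 lists made with earlier results known. The list of 39 other interleukin receptor genes also held receptors of related cytokines, the antagonist IL1RN and the binding protein IL18BP. Of these 39, 24 were expressed. With the block, 2 of these fell in the knockdown and 0 rose: IL6ST, the signalling chain for IL6 (38.2, 38.4 and 35.6 CPM in EV, 28.6, 27.6 and 32.2 CPM in SH2, and 30.8, 26.6 and 30.7 CPM in SH3), by log2 -0.35 ± 0.07 (edgeR adjusted p = 0.0488), and IL27RA, a chain of the IL27 receptor, by -0.37 ± 0.07 (edgeR adjusted p = 0.0458). In IL6ST all knockdown samples were below all EV samples, and in 4.77% of all genes the knockdown and EV samples did not overlap. Of 32 genes of cytokine signalling, all expressed, JAK1 alone fell (log2 -0.33 ± 0.06, edgeR adjusted p = 0.0379) and 0 rose. Of 31 other genes of the chemokine system, 12 were expressed and 0 were called. Beside these counts, 1.10% of all genes were called with the block. Without the block 0 were called in each list, as for all genes. The list medians with the block were 0.03, -0.03 and -0.03 on the log2 scale, beside 0.01 for all genes.

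By number, 24.1% of all genes were higher and 22.2% lower in the samples numbered 1. Of the 24 expressed genes of the receptor list, 8 rose there and 3 fell. In the signalling list 13 of 32 rose and 6 fell, and in the chemokine system list 3 of 12 rose and 2 fell. These counts were 5 and 4, 10 and 6, and 3 and 2 without SH3 replicate 1. The receptor chains that rose included IL2RA (log2 0.97 ± 0.18) and IL11RA (1.46 ± 0.17), and the signalling genes that rose included JAK3 (0.78 ± 0.11), STAT6 (0.76 ± 0.09) and NFKB2 (0.73 ± 0.18), a subunit of NF-kB. Among those that fell were IL27RA (-0.42 ± 0.07), IRAK1 (-0.44 ± 0.09), a kinase downstream of MYD88, and NFKBIB (-0.58 ± 0.12), an inhibitor of NF-kB. The edgeR adjusted p values of these 8 genes ran from 0.00744 down to 0.000304. All 8 were also called in the same direction without SH3 replicate 1, with IL2RA at 0.58, NFKB2 at 0.37 and NFKBIB at -0.38. The medians of the receptor, signalling and chemokine system lists were 0.06, 0.10 and 0.08, beside 0.01 over all genes and 0.38 over the 28 members. Without SH3 replicate 1 they were -0.016, 0.08 and 0.10, beside 0.001 over all genes and 0.18 over the members.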

How the data were processed

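RNA of 9 SKNO-1 samples had been sequenced from unstranded poly(A) libraries. The labels name the cell line, but their extraction text speaks of bone marrow cells from a sort. The line was taken as the source. The values deposited by the authors are whole-number counts per RefSeq transcript on hg19, not normalized. The processing notes name STAR, featureCounts and DESeq2 without versions or roles. For each symbol the transcript with the most counts over all samples was used, and 61 of the 99 members had 1 transcript. CPM used library sizes scaled by TMM. Tests used edgeR 4.0.16 in R 4.3.3 (quasi-likelihood F test, filterByExpr at its defaults, 10 counts and a total of 15, Benjamini-Hochberg adjustment over 14199 genes), with 1 coefficient per group and all 9 samples. A standard error is the log2 fold change divided by the square root of F. The code was tested on simulated data.

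The numbers 1, 13 and 25 recur in each group. Departures from the mean log2 CPM of a group correlated between same-numbered samples in all 9 pairs (Pearson r at least 0.398, mean 0.598), so the numbers were taken to pair the samples and the fit with the number as a block is given beside each call it changes. The labels do not say whether numbers mark separate cultures, so p values measure the spread between these samples. Alternatives were the block, DESeq2 1.42.0, RLE factors, other filters, the mean of all transcripts, a transcript length offset (GENCODE 44, 13396 genes, all 28 members) and leaving out each sample. Blocked fits without each sample, and without all samples numbered 1, were chosen after seeing the data.

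Every expressed member is named. Values of each sample are given for members past the threshold by group or number and for the 10 most abundant, and CCL24, which was called only in alternatives, was added after its values were seen. The members and the lists of related genes and cell type markers were chosen with earlier results of these data known. Gene coordinates and lengths are from GENCODE on GRCh37 and promoters from RefSeq on GRCh38.p14. Some single genes are not reported here.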

Additional observations from a re-analysis of the deposited data

How the results depend on the processing

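With 3 samples a group and 6 residual degrees of freedom, the fit without the sample number called no gene by group, and the block changed this most. For both shRNAs against EV the count over all genes rose from 0 to 156 with the replicate block, 25 with the block and the transcript length offset, 56 in DESeq2 and 629 in DESeq2 with the block. When 1 sample was left out of the blocked fit it was 2, 4 and 2 without EV replicates 1, 13 and 25, 2, 25 and 2 without those of SH2, and 1755, 90 and 88 without those of SH3. Among the members, the replicate block gave 1 call for both shRNAs, and DESeq2 with the block gave 1 for SH2, 2 for SH3 and 1 for both. The block without replicate 1 of every group gave 1 of 27 members in each of these 3 comparisons, beside 1.90%, 2.42% and 2.63% of all genes. The blocked fits that left out 1 sample gave 0 to 2 for SH2, 0 to 2 for SH3, 0 to 2 for both and 0 to 1 for SH3 against SH2, the last being CXCR4 without SH3 replicate 13. Each count of 2 came without SH3 replicate 1. Over all genes these fits called 0 to 1604 for SH2, 1 to 368 for SH3 and 0 to 257 for SH3 against SH2. The block changed no other call of a member by group, and the causes were not tested.

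For number 1 against 13 and 25, 11 to 16 members were called under the alternatives run, not the same ones each time, beside 4813 to 6856 of all genes. Number 25 against 13 went from 2 to 1 without the group term, 4 in DESeq2, 5 with no filter on low counts and 9 without replicate 1 of every group, and to between 0 and 9 when single samples were left out. Over all genes these counts were 304, 991, 1067 and 3027, and 50 to 2750 for single omissions, beside 833 with all samples. ASXL2, for both shRNAs against EV, was at log2 -1.08 with an edgeR adjusted p of 0.177 and passed the threshold with the block (-1.09), with the block and the length offset (-0.89), in DESeq2 (-1.07), in DESeq2 with the block (-1.09) and with the block without replicate 1 of every group (-1.004). Leaving out single samples gave -1.18 to -1.02, with a call without SH3 replicate 1 or 25. With the block it was called each time, at -1.005, -1.10 and -1.16 without EV replicates 1, 13 and 25, -1.08, -1.13 and -1.05 without those of SH2, and -1.05, -1.05 and -1.16 without those of SH3.

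Over the named members, 510 alternatives kept direction and side of the threshold, 60 lost a call, 16 gained one and 2 turned the sign of a difference that was not called: IL6R for both shRNAs against EV without EV replicate 1 (log2 0.14, and -0.52 to 0.14 over single omissions) and CXCR4 for SH3 against SH2 without SH3 replicate 1 (log2 -0.059, and -0.059 to 1.23 over single omissions). Depth limits the 15 expressed members below 1 CPM most.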
